A study of Xenopus tropicalis with 4 samples.

Results

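The genes described here encode proteins of epithelial cell junctions in the ectoderm of early gastrulae of the frog Xenopus tropicalis. They were chosen by symbol and comprise claudins, other tight junction genes, cadherins, alpha- and delta-catenins, nectins with afadin, desmosome genes, the polarity genes pard3 and pard6, and connexins. The rule selected 108 of the 28850 genes in the files and used no measured value. It also took in genes that share a symbol root without being known junction proteins of epithelia, such as many nervous system cadherins, cldnd1 and ctnnal1. Messenger RNA was sequenced from animal cap explants, pieces of ectoderm cut from the embryo, at stage 10.5. Wild-type embryos had received 22.5 ng of a Foxh1 morpholino oligonucleotide (MO), an antisense reagent, or the same amount of a standard control MO at the 1-cell stage, and were grown at 25 °C. Each group held 2 libraries, and the labels do not say whether these came from separate clutches or how many explants each library pooled, so a p-value reflects only the scatter among these 4 libraries, and that scatter may be technical.

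Epithelial cells are held together by junctions of several kinds. Tight junctions, built from claudins, occludin and the ZO scaffold proteins, seal the space between cells. Adherens junctions join cells through cadherins and nectins, which the catenins and afadin tie to the actin cytoskeleton, while desmosomes anchor intermediate filaments and gap junctions, made of connexins, let small molecules pass from cell to cell. In Xenopus the surface layer of the animal cap is already a polarised epithelium at the gastrula stage, and C-cadherin, the product of cdh3, is the maternal cadherin of the early embryo.

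Expected counts summed to 28567827 and 25632619 in Foxh1 MO 1 and 2 and to 29750009 and 29800530 in control MO 1 and 2. No library repeated another, since counts within the Foxh1 MO pair and within the control MO pair differed by 64.2 and 35.9 times the sampling variance. Between libraries of different groups this figure was 44.65 to 72.1, so the value of the Foxh1 MO pair lay within that range. Correlations of log2 CPM were 0.988 within the Foxh1 MO pair, 0.990 within the control MO pair and 0.972 to 0.980 between groups. Foxh1 is a DNA-binding partner of the Smad proteins that carry Nodal signals. Its transcript stood at 154 and 104 TPM in the Foxh1 MO libraries, against 49.3 and 40.5 TPM in the control MO libraries (log2 fold change 1.54, SE 0.19, edgeR adjusted p = 0.000431). An MO need not remove the transcript, so this level does not show whether the protein was lost, and "higher", "lower", "rose" and "fell" refer to the libraries labelled Foxh1 MO.

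Most of the differences that passed the test lay in junction genes of low level. The transcript of highest level, cldn6.1, was lower in both Foxh1 MO libraries without passing the test. In TPM the same held for cldn7 and f11r. Several others of high level, among them epcam, cldn6.2, cdh3 and ocln, overlapped between the groups in TPM. Levels are given in TPM, which are set per transcript length and can be compared between genes, and changes as log2 fold changes from the count test. Of the 108 genes, 60 passed the filter on low counts (55.6%, against 47.7% of all genes in the files). Some of these, such as cldn11 and gjb2, passed through the counts of only 1 group. Called at an adjusted p under 0.05, 3 of the 60 rose (5%, against 4.17% of all tested genes) and 5 fell (8.33%, against 4.07%), while 52 did not pass, so 13.3% were called in either direction, against 8.24%. At an unadjusted p under 0.05 there were 19 of 60 (31.7%, against 21.6%). The median log2 fold change of the 60 was -0.06, against -0.00019 over all 13756 tested genes. The genes that rose were cldn11, nectin4 and cdh26, and those that fell were cldn1, cldn8.3, nectin1, gjb2 and cgn. At a mean of 10 TPM or more, a level chosen after the values were seen, 1 of 37 junction genes was called (2.7%, against 7.18% of all tested genes at that level). Below it 7 of 23 were called (30.4%, against 9.77%). These shares are descriptions of a list chosen by name and carry no test.

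**Figure D1:**
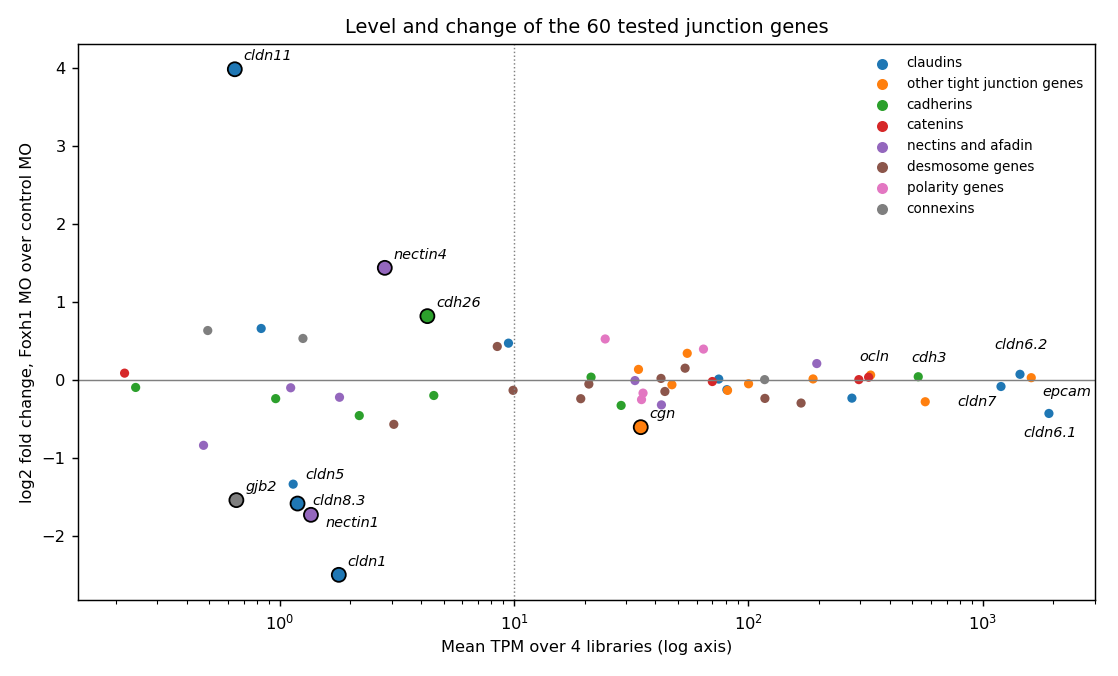
Mean TPM over the 4 libraries (x axis, log scale) against the log2 fold change of Foxh1 MO over control MO (y axis) for the 60 tested junction genes, coloured by family. Large outlined points passed the test, and the dotted line marks 10 TPM. Of the 8 called genes, cgn lies to the right of that line, whereas the abundant genes epcam, cldn6.2, cldn7, cdh3 and ocln lie close to 0 and cldn6.1 lies at -0.43.

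Claudins, the membrane proteins that form the tight junction seal, were the most abundant of the families. Their 27 genes summed to 4456 and 4803 TPM in the Foxh1 MO libraries, against 5256 and 5478 TPM in the control MO libraries. The groups did not overlap, and the Foxh1 MO mean was 0.863 times that of control MO. Most of this RNA came from 3 genes, cldn6.1, cldn6.2 and cldn7, which together held 90.4% to 91.8% of the claudin TPM in every library.

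The fall of the claudin sum lay mainly in cldn6.1, the claudin of highest level. It had 1532 and 1684 TPM in Foxh1 MO caps and 2185 and 2257 TPM in control MO caps. The groups did not overlap, but the change did not pass the test (log2 fold change -0.43, SE 0.14, edgeR adjusted p = 0.0787). The share of claudin TPM held by cldn6.1 was 34.4% and 35.1% in the Foxh1 MO libraries, against 41.6% and 41.2% in the control MO libraries. The gene next to it in the RefSeq gene order, cldn6.2, had 1385 and 1534 TPM in Foxh1 MO caps and 1378 and 1466 TPM in control MO caps, where the groups overlapped (log2 fold change 0.07, 95% confidence interval -0.23 to 0.38). Both carry expected counts that were not whole in at least 1 library, so the authors' counting split some reads between genes there, and the division between these near neighbours is uncertain.

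The next claudins differed less. The cldn7 gene, whose product in mammals binds EpCAM, had 1163 and 1129 TPM in Foxh1 MO caps, against 1187 and 1303 TPM in control MO caps (log2 fold change -0.08, 95% confidence interval -0.39 to 0.22). For cldn4, chosen after its values were seen, the levels were 222 and 279 TPM in Foxh1 MO and 317 and 287 TPM in control MO, and the log2 fold change was -0.23 (edgeR adjusted p = 0.383). Neither passed the test, although in TPM the Foxh1 MO libraries were the lower ones for both. In TMM-scaled CPM cldn7 overlapped, with 616 and 581 in Foxh1 MO and 572 and 696 in control MO.

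**Figure D2:**
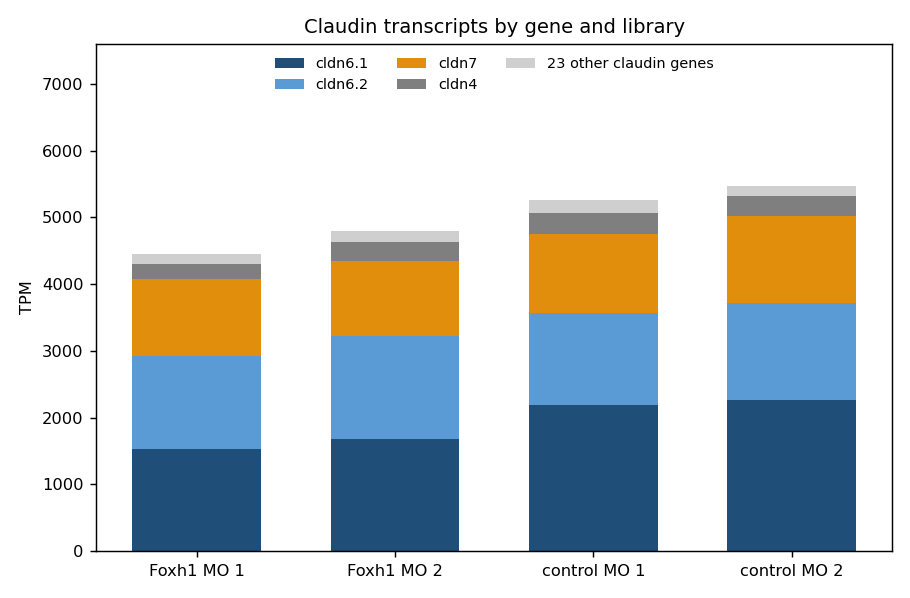
TPM of the claudin genes (y axis) in each of the 4 libraries (x axis), stacked by gene, with 23 genes of lower level pooled. The cldn6.1 block is smaller in Foxh1 MO 1 and 2 (1532 and 1684 TPM) than in control MO 1 and 2 (2185 and 2257 TPM), while the cldn6.2 and cldn7 blocks change little.

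Of the 12 tested claudin genes, 1 rose and 2 fell, all of low level. The shares over all tested genes were 4.17% higher and 4.07% lower. The gene that rose was cldn11, which in mammals forms the tight junctions of myelin and of Sertoli cells. It was nearly silent in control caps, with 0.04 and 0.12 TPM (3 and 9 counts), and reached 1.27 and 1.14 TPM (96 and 80 counts) in Foxh1 MO caps. The log2 fold change was 3.99 (SE 0.44, edgeR adjusted p = 0.000232), the largest in size among the 60 genes. It rested on few control counts and ranged from 3.35 to 5.03 with each library left out in turn, called each time.

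The genes that fell were cldn1, a component of the epidermal barrier in mammals, and cldn8.3, related to a claudin of the mammalian kidney. Levels of cldn1 were 0.31 and 0.76 TPM in Foxh1 MO caps, against 1.71 and 4.36 TPM in control MO caps. The control libraries thus differed from each other by more than either Foxh1 MO library differed from the lower of them, yet the groups did not overlap (log2 fold change -2.50, SE 0.51, edgeR adjusted p = 0.00968). Without control MO 2 the log2 fold change was -1.58 and without Foxh1 MO 2 it was -3.25, with the call kept each time. For cldn8.3 the levels were 0.41 and 0.75 TPM in Foxh1 MO and 2.22 and 1.38 TPM in control MO (log2 fold change -1.59, SE 0.38, edgeR adjusted p = 0.0246). That call ended without Foxh1 MO 1 (adjusted p = 0.0572) or control MO 1 (0.0909).

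A further claudin, cldn5, which in mammals seals the endothelium of the blood-brain barrier, had a log2 fold change of -1.34 without passing the test (SE 0.40, edgeR adjusted p = 0.0608). Its levels were 0.86 and 0.39 TPM in Foxh1 MO and 1.84 and 1.47 TPM in control MO, with no overlap. The authors' deposited table gave it a false discovery rate of 0.0114. By that table's false discovery rate, under 0.05, the junction genes called were the 8 named above and cldn5, with 3 higher and 6 lower. In the RefSeq gene order cldn8.3 lies in a run of neighbouring claudin genes that also holds cldn8.1, cldn8.2, cldn8.4, cldn17.1 and cldn17.3. None of these others could be tested. The highest of them, cldn8.4, had 1 and 4 counts in Foxh1 MO and 10 and 7 counts in control MO. In all 15 claudin genes were too low to test, and 4 had no count in any library. The pair at the edge of the filter was cldn15.2, the tested gene with the fewest counts (34 in all, log2 fold change 0.66, SE 0.59), and the connexin gene gjd3, the untested gene with the most (33 in all).

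**Figure D3:**
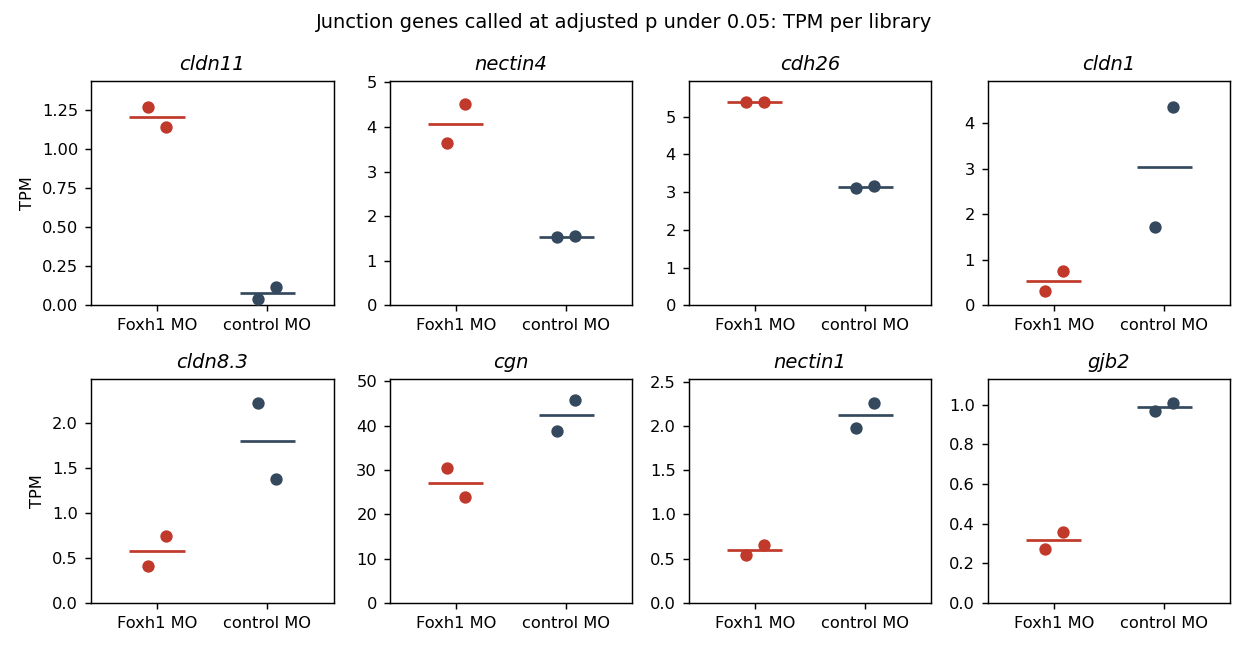
TPM per library (points, y axis from 0) of the 8 junction genes called at an adjusted p under 0.05, with Foxh1 MO and control MO side by side; horizontal lines are means of 2 libraries. The groups do not overlap in any panel, and all genes but cgn stay under 6 TPM.

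Among the other transmembrane and scaffold genes of the tight junction, with which epcam was grouped, 10 were tested. Of these 0 rose and 1, cgn, fell, against 4.17% and 4.07% of all tested genes. The groups did not overlap for 4 of the 10, with Foxh1 MO above for 1 and below for 3. Over all tested genes these shares were 20.6% above and 27.6% below. The family summed to 2913 and 3028 TPM in Foxh1 MO caps and 3264 and 2994 TPM in control MO caps, which overlapped. The most abundant was epcam, an epithelial adhesion gene, with 1539 and 1666 TPM in Foxh1 MO and 1702 and 1531 TPM in control MO (log2 fold change 0.03, 95% confidence interval -0.25 to 0.31). It held 51.1% to 55.0% of the family TPM in each library, so the family sum mostly follows epcam. Occludin, ocln, had 317 and 352 TPM in Foxh1 MO and 355 and 304 TPM in control MO (log2 fold change 0.06, 95% confidence interval -0.22 to 0.35). Both genes overlapped between the groups. Their intervals leave out the log2 fold change of cgn, -0.61, but the 95% confidence interval of cgn itself reached -0.23. Some reads of ocln were split between genes by the authors' counting.

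The gene f11r, which encodes the junctional adhesion molecule JAM-A, had 553 and 457 TPM in Foxh1 MO and 619 and 642 TPM in control MO. Foxh1 MO 2 was the lowest library, and the change was not called (log2 fold change -0.28, SE 0.15, edgeR adjusted p = 0.311). The gene marveld2, named with its values known, encodes tricellulin, a protein of the corners where cells meet. It had 56.3 and 64.5 TPM in Foxh1 MO and 54.1 and 44.2 TPM in control MO, without overlap and without a call (log2 fold change 0.34, 95% confidence interval 0.04 to 0.65, edgeR adjusted p = 0.173). Some of its reads were split between genes by the authors' counting. Cingulin, cgn, a plaque protein that links the ZO scaffold to actomyosin, had 30.3 and 23.8 TPM in Foxh1 MO caps and 38.9 and 45.7 TPM in control MO caps. It fell by 0.61 on the log2 scale (SE 0.17, edgeR adjusted p = 0.0471), close to the threshold. The call ended without Foxh1 MO 2 (log2 fold change -0.42, adjusted p = 0.182) or control MO 2 (-0.41, adjusted p = 0.360). Paracingulin, cgnl1, a relative picked out with its values known, stayed at a log2 fold change of 0.01 (SE 0.14).

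Cadherins, the calcium-dependent adhesion proteins of adherens junctions, were dominated by cdh3. It held 88.9% to 90.2% of the cadherin TPM in each library, with 524 and 536 TPM in Foxh1 MO and 558 and 502 TPM in control MO (log2 fold change 0.04, 95% confidence interval -0.24 to 0.32). The groups overlapped, and so they did for cdh16, a cadherin of the kidney in mammals (19.2 and 23.3 TPM in Foxh1 MO, 24.5 and 18.3 TPM in control MO). E-cadherin, cdh1, the neighbour of cdh3 in the gene order, stood far below it. It had 24.0 and 26.1 TPM in Foxh1 MO caps and 32.2 in both control MO libraries, without overlap but also without passing the test (log2 fold change -0.33, SE 0.14, edgeR adjusted p = 0.184).

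Of 8 tested cadherin genes 1 rose and 0 fell, against 4.17% and 4.07% of all tested genes. The groups did not overlap in TPM for 1 with Foxh1 MO above and 1 with it below, against 20.6% and 27.6%. The gene that rose was cdh26. It had 5.39 TPM in both Foxh1 MO libraries, against 3.10 and 3.17 TPM in the control MO libraries. These values agree closely within each group, and the log2 fold change of 0.82 (SE 0.18, edgeR adjusted p = 0.0161) kept its call with each library left out (0.76 to 0.88). N-cadherin, cdh2, which marks neural tissue later in development, was named after its values were seen. It had 2.26 and 1.36 TPM in Foxh1 MO and 2.11 and 3 TPM in control MO, which overlapped (edgeR adjusted p = 0.442). Of 23 cadherin genes 15 were too low to test, none of them above 0.12 TPM in any library.

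The catenins of these junctions showed no called change. Of 4 tested genes, all overlapped between the groups, with log2 fold changes from -0.02 to 0.09. Among all tested genes the groups did not overlap for 20.6% with Foxh1 MO above and for 27.6% with it below, and 8.24% were called. Levels of ctnnd1 (p120-catenin, which stabilises cadherins at the membrane) were 303 and 346 TPM in Foxh1 MO and 342 and 311 TPM in control MO. Levels of ctnna1 (alpha-catenin, which links cadherins to actin) were 270 and 314 TPM in Foxh1 MO and 320 and 280 TPM in control MO. The third, ctnnal1, had 62.5 and 74.6 TPM in Foxh1 MO and 77.5 and 65.8 TPM in control MO (log2 fold change -0.02). The log2 fold change was 0.04 for ctnnd1 (95% confidence interval -0.25 to 0.32) and 0.0047 for ctnna1 (-0.28 to 0.29).

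Nectins, adhesion proteins of the immunoglobulin superfamily, held called changes in both directions. Of 8 tested genes of the family, nectin4 rose, nectin1 fell and 6 did not pass. Of all tested genes 4.17% rose and 4.07% fell. In human, mutations of nectin4 and of nectin1 each cause an ectodermal dysplasia syndrome. Levels of nectin4 were 3.63 and 4.51 TPM in Foxh1 MO caps and 1.53 and 1.55 TPM in control MO caps (log2 fold change 1.44, SE 0.23, edgeR adjusted p = 0.00231). Levels of nectin1 were 0.54 and 0.65 TPM in Foxh1 MO caps and 1.98 and 2.26 TPM in control MO caps (log2 fold change -1.73, SE 0.22, edgeR adjusted p = 0.000662). In both genes the libraries of a group lay close together, and both calls held with each library left out, with adjusted p-values up to 0.0117 for nectin4 and log2 fold changes from -1.87 to -1.60 for nectin1.

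The abundant members of the family changed less. The gene nectin2, known in Xenopus for its part in apical constriction of the neural plate, had 210 and 205 TPM in Foxh1 MO and 187 and 181 TPM in control MO (log2 fold change 0.21, 95% confidence interval -0.07 to 0.49). For nectin1l1 the levels were 37.5 and 37.2 TPM in Foxh1 MO and 47.4 and 47.9 TPM in control MO (log2 fold change -0.32, edgeR adjusted p = 0.205). Neither was called, although the groups did not overlap in either. Afadin, afdn, the actin-binding partner of nectins, had 33.98 and 30.5 TPM in Foxh1 MO and 34.9 and 31.8 TPM in control MO (log2 fold change -0.0075). The family sum was 289 and 280 TPM in Foxh1 MO and 276 and 268 TPM in control MO. The nectin1l1, nectin1l2.1 and nectin1l2.2 genes also had split reads, so their separate values are uncertain.

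No desmosome gene was called, against 8.24% of all tested genes. Of 10 tested genes 7 had a negative and 3 a positive log2 fold change, from -0.57 to 0.43. The family sum was 484 and 420 TPM in Foxh1 MO caps, below the 522 and 521 TPM in control MO caps. In TMM-scaled CPM the sums overlapped, at 818 and 719 in Foxh1 MO and 816 and 858 in control MO. Plakoglobin, jup, had 165 and 132 TPM in Foxh1 MO and 182 and 193 TPM in control MO (log2 fold change -0.30, SE 0.16, edgeR adjusted p = 0.305). The plakophilin gene pkp3 had 118 and 94.3 TPM in Foxh1 MO and 125 and 132 TPM in control MO (-0.24, SE 0.16, adjusted p = 0.431 by edgeR). In both, Foxh1 MO 2 was the lowest library. The desmosomal cadherin gene dsc3 overlapped between the groups, with 51.7 and 59.6 TPM in Foxh1 MO and 55.8 and 47.4 TPM in control MO (log2 fold change 0.15).

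The periplakin and envoplakin genes, which encode cytolinkers that pair in the cornified envelope of mammalian skin, lay nearest to a call and were named after their values were seen. Levels of ppl were 8.96 and 10.3 TPM in Foxh1 MO and 7.93 and 6.71 TPM in control MO (log2 fold change 0.43, edgeR adjusted p = 0.0969). Levels of evpl were 2.50 and 2.35 TPM in Foxh1 MO and 3.78 and 3.63 TPM in control MO (log2 fold change -0.57, edgeR adjusted p = 0.0619). The groups did not overlap for either gene, and the signs were opposite.

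**Figure D4:**
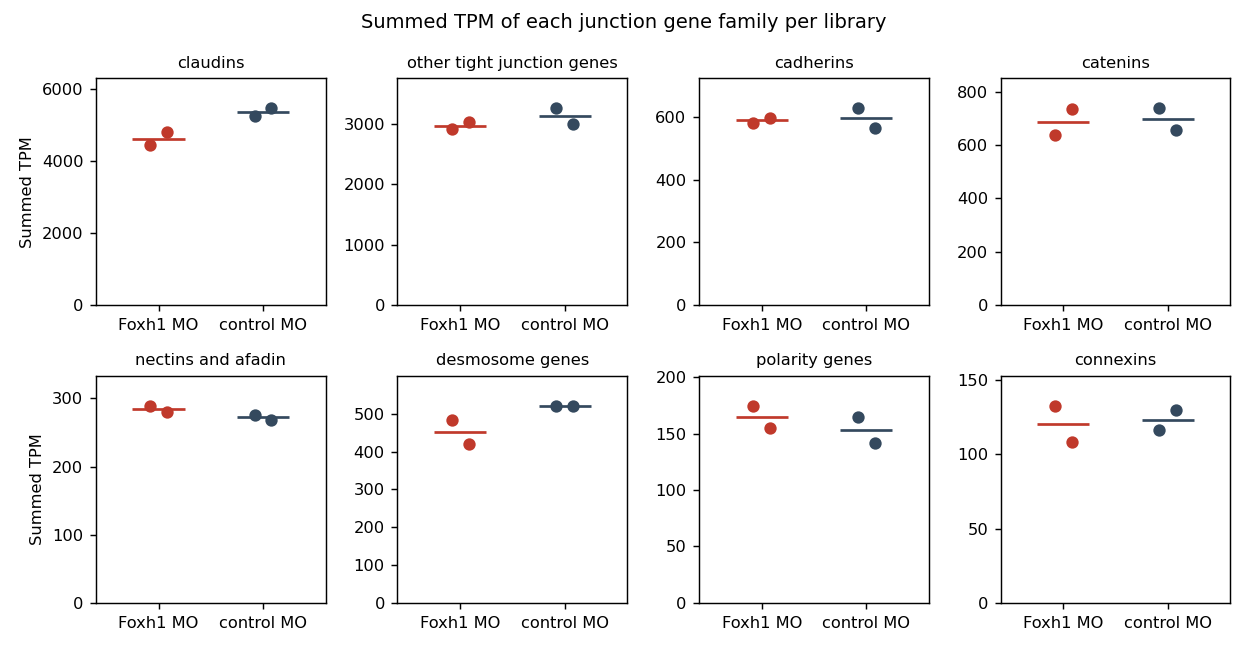
Summed TPM (y axis from 0) of all members of each of the 8 junction gene families per library (points) in Foxh1 MO and control MO, with lines at the means of 2 libraries. Claudin and desmosome sums are lower in both Foxh1 MO libraries, nectin sums are higher in both, and the other families overlap.

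The 4 polarity genes were all tested and none was called, against 8.24% of all tested genes. The polarity genes include genes for partners of atypical protein kinase C that mark the apical side of the cell. The most abundant, pard6g, had 70.8 and 73.2 TPM in Foxh1 MO and 63.0 and 50.01 TPM in control MO (log2 fold change 0.40, edgeR adjusted p = 0.107). Its relative pard6b had 33.8 and 29.0 TPM in Foxh1 MO and 39.9 and 37.2 TPM in control MO (-0.25, adjusted p = 0.353 by edgeR). The groups did not overlap for either, and the signs were opposite. For pard3b the groups overlapped, with 35.1 and 30.6 TPM in Foxh1 MO and 41.7 and 34.5 TPM in control MO (log2 fold change -0.17). The largest log2 fold change of these genes was that of pard3, named with its values known, at 0.53 (SE 0.19, edgeR adjusted p = 0.111). It had 34.99 and 22.3 TPM in Foxh1 MO and 20.4 and 20.1 TPM in control MO, with Foxh1 MO 1 far above the other libraries. It was called higher with upper-quartile factors, with no filter and without Foxh1 MO 2.

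Of 19 connexin genes 4 could be tested. Of these 0 rose and 1 fell, against 4.17% and 4.07% of all tested genes. The cap transcripts of this family were almost all from gja7, which held 95.3% to 97.0% of the connexin TPM. It had 128 and 103 TPM in Foxh1 MO and 112 and 126 TPM in control MO, with a log2 fold change of 0.0046 (95% confidence interval -0.34 to 0.35). The gene that fell was gjb2, which encodes connexin 26, mutated in a common form of human deafness. It had 0.27 and 0.36 TPM (9 and 11 counts) in Foxh1 MO and 0.97 and 1.01 TPM (32 and 33 counts) in control MO. The 9 counts of Foxh1 MO 1 lay under the minimum count of 10, so gjb2 passed the filter through control MO. The log2 fold change was -1.54 (SE 0.42, edgeR adjusted p = 0.0412), and the call ended whichever library was left out (adjusted p 0.0694 to 0.156). Connexin 43, gja1, had 1.88 and 1.12 TPM in Foxh1 MO and 1.05 and 0.97 TPM in control MO and was not called (log2 fold change 0.53, SE 0.31).

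The number of junction genes called lower depended on single libraries. It was 5 with all 4 libraries, 12 without Foxh1 MO 1 and 3 without control MO 1. Without control MO 1 more genes were called lower over the whole series, although fewer junction genes were. Without Foxh1 MO 1 more were called lower both over the whole series and among junction genes. Among junction genes, jup, pkp2, pkp3, pkp4, f11r, cldn5, cldn6.1, evpl and nectin3 were then called lower as well. Of these, pkp4 had 49.9 TPM in Foxh1 MO 1 and 32.2 TPM in Foxh1 MO 2, against 47.2 and 46.6 TPM in the control MO libraries, and pkp2 had 20.7 and 14.1 TPM in Foxh1 MO 1 and 2, against 19.3 and 22.9 TPM; both were named after their values were seen. For pkp2 and pkp4 Foxh1 MO 2 thus lay below both control libraries and Foxh1 MO 1 did not. In TPM pkp3 was below them in both Foxh1 MO libraries. In TMM-scaled CPM pkp3 had 166 and 128 in Foxh1 MO and 161 and 185 in control MO, so there Foxh1 MO 1 lay above control MO 1. By contrast cldn11, nectin4, cdh26, cldn1 and nectin1 were called with any library left out. Over the 60 genes the groups did not overlap in TPM with Foxh1 MO above for 10 (16.7%, against 20.6% of all tested genes) and below for 19 (31.7%, against 27.6%).

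**Figure D5:**
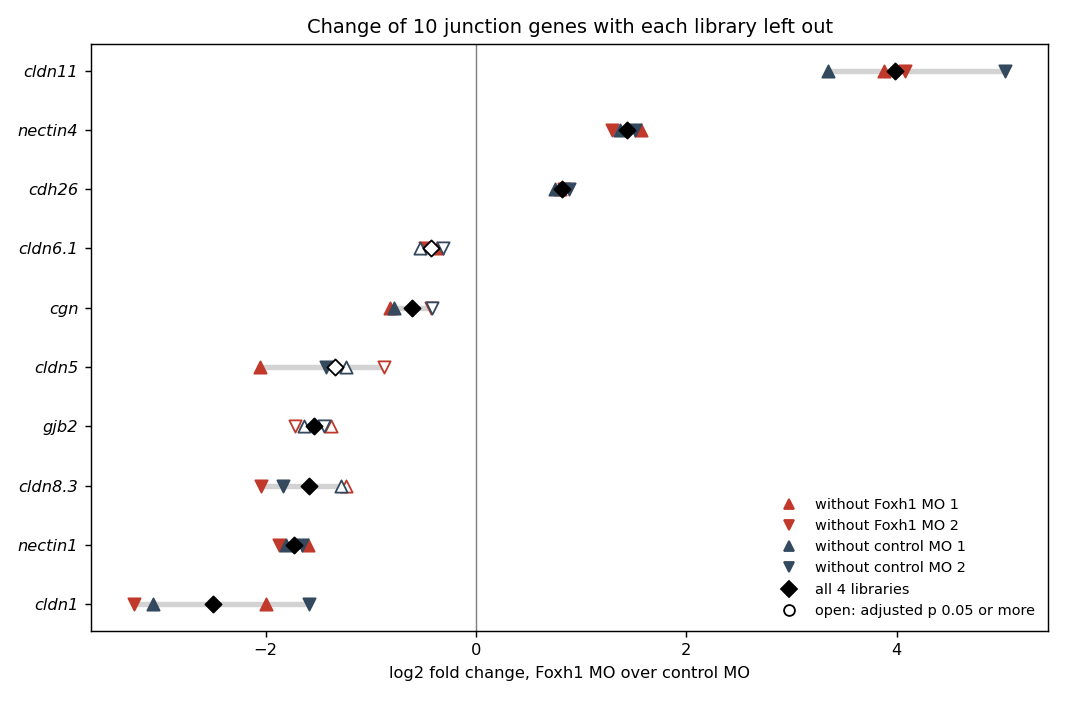
Log2 fold change of Foxh1 MO over control MO (x axis) for 10 junction genes with all 4 libraries (diamonds) and with each library left out (triangles); open symbols mark an adjusted p of 0.05 or more. The values of nectin4, nectin1 and cdh26 hardly move, those of cldn1 run from -3.25 to -1.58, and gjb2 has a filled symbol for all 4 libraries together and open ones otherwise.

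Partners of the same junctions outside the rule held 1 called change. Of 39 tested genes on a list of junction partners, 0 rose, 1 fell and 38 did not pass, with a median log2 fold change of -0.10. Over all tested genes 4.17% rose and 4.07% fell. The gene that fell was prkcz, an atypical protein kinase C that binds pard6 proteins, with 2.81 and 3.04 TPM in Foxh1 MO and 4.99 and 4.32 TPM in control MO (log2 fold change -0.62, SE 0.17, edgeR adjusted p = 0.0425). Its call ended with any library left out (adjusted p 0.0679 to 0.120). Beta-catenin, ctnnb1, which joins cadherins to alpha-catenin, had a log2 fold change of 0.11 (SE 0.13), and vinculin, vcl, had -0.07 (SE 0.13).

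Of 16 tested regulators of the epithelial state, 4 rose and 1 fell, against 4.17% and 4.07% of all tested genes. Those that rose were grhl1, a grainyhead-like factor (128 and 126 TPM in Foxh1 MO, 78.3 and 68.4 TPM in control MO), elf3 (log2 fold change 1.58), klf5 (0.51) and tfap2a (0.68). The one that fell was twist1, a factor known for repressing E-cadherin in mammalian cells (1.21 and 1.29 TPM in Foxh1 MO, 4.32 and 2.73 TPM in control MO). Log2 fold changes of grhl3 and tfap2c, not called, were 0.36 and 0.07. Uncalled genes lay on both sides of 0, and 3 are named here after their values were seen. They were klf4 (-1.44, edgeR adjusted p = 0.0508), ovol1 (-1.19, groups overlapping) and tp63 (0.73, edgeR adjusted p = 0.0628). Without control MO 1 the calls of klf5 (edgeR adjusted p = 0.257) and tfap2a (0.106) ended. The calls of elf3 (0.268) and klf5 (0.0769) ended without Foxh1 MO 2, and that of klf5 without control MO 2 as well (0.169). That of twist1 ended without Foxh1 MO 2 (0.110) or control MO 1 (0.167).

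Markers of the tissues that a cap can hold moved with the same contrast. Over all tested genes 4.17% rose and 4.07% fell, and of 13 tested epidermis markers 8 rose and 1 fell. The epidermis list summed to 3176 and 3632 TPM in Foxh1 MO and 2912 and 2695 TPM in control MO. This list shares epcam with the junction genes and 4 others with the regulators above. Beyond grhl1 and tfap2a, dlx3, msx1 and foxi1 rose (log2 fold changes 1.22, 0.96 and 0.90) and krt12.4 fell (-0.97). Without Foxh1 MO 2 the calls of foxi1 and krt12.4 ended, and they also ended without control MO 1 for foxi1 and without control MO 2 for krt12.4. Of 11 tested neural plate markers 7 fell and 0 rose, with sums of 1120 and 1097 TPM in Foxh1 MO and 1799 and 1681 TPM in control MO. They included sox1 (-2.31), otx1 (-1.37), irx1 (-1.32) and sox2 (-1.23), while gmnn, not called, had -0.33. Counts of sox1 were low, at 13 and 10 in Foxh1 MO and 61 and 66 in control MO. The largest parts of the neural plate sums came from sox3 and gmnn. Levels of sox3 were 472 and 416 TPM in Foxh1 MO and 690 and 720 TPM in control MO. Those of gmnn were 388 and 455 TPM in Foxh1 MO and 611 and 479 TPM in control MO.

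Mesendoderm markers summed to 62.6 and 72.3 TPM in Foxh1 MO and 88.7 and 101 TPM in control MO. The nodal1 gene had no count in any library. Of 13 tested mesendoderm markers 4 fell and 0 rose, against 4.07% and 4.17% of all tested genes. The 4 were chrd.1, mix1, sox17b.1 and eomes (log2 fold changes -3.69, -2.55, -1.05 and -0.96), and gata6 and vegt, not called, had -0.44 and -0.24. Uncalled markers lay on both sides of 0, most of them below. Those above were gata4 (1.09, edgeR adjusted p = 0.163) and tbxt (0.26), named after their values were seen. Counts of chrd.1 were 8 and 4 in Foxh1 MO and 98 and 77 in control MO, so it passed the filter through control MO only. For mix1 they were 15 and 18 in Foxh1 MO and 119 and 97 in control MO. The calls of sox17b.1 and eomes ended without Foxh1 MO 2 (adjusted p = 0.0735 and 0.0868 by edgeR), that of sox17b.1 also without Foxh1 MO 1 (0.0501) and that of eomes without control MO 2 (0.0595). Of 11 tested ionocyte and multiciliated cell markers 1 rose and 3 fell, with sums of 272 and 327 TPM in Foxh1 MO and 304 and 315 TPM in control MO. The gene that rose, foxi1, is also on the epidermis list. Those that fell included dmrt2 (-1.36, not called without control MO 1) and foxj1 (25.9 and 16.5 TPM in Foxh1 MO, 40.85 and 46.5 TPM in control MO). The gmnc gene, named after its values were seen, was not called at 0.75 (edgeR adjusted p = 0.0742). Log2 fold changes of rfx2 and ca12, not called, were -0.31 and 0.0025. In these bulk samples fewer cells of a type and less RNA per cell cannot be told apart, and the part of these tissues in the changes of the 8 junction genes was not tested.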

How the data were processed

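The deposited files held, per the file headers, RSEM expected counts, TPM, FPKM and lengths for 28850 genes in each of 4 libraries, and the authors' comparison table of 13758 genes giving log2 CPM, log2 fold change, F (a score), p-value and false discovery rate. Per the labels' protocols, libraries were prepared from poly(A) RNA by a NEBNext Ultra II kit. The submitters' processing notes name STAR 2.7.3a as well as RSEM 1.3.3, and also R 4.1.2 with edgeR 3.36.0. For the build and the strand setting nothing is given in the sources used here. Deposited FPKM values were not tested.

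Expected counts were rounded and fitted over the whole table in R 4.3.3 with edgeR 4.0.16: filterByExpr by group (minimum count 10, total 15), which left 13756 genes, TMM factors, and a quasi-likelihood F test with no covariate (2 residual and 10.5 prior degrees of freedom). Adjusted p-values are Benjamini-Hochberg over all tested genes. Log2 fold changes are Foxh1 MO minus control MO, the SE is the size of the log2 fold change over the square root of F, and 95% intervals use the t distribution. The fit was tested on simulated data. Ribosomal RNA gene models took 28.3% to 34.0% of counts.

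The members, the lists and the tests were chosen with earlier results of these data known. Named genes were foxh1, all called members, the 3 of highest mean TPM in each family, tested members not called with a log2 fold change of at least 1 in size, the genes on either side of the filter, and, from each list, up to 4 called genes a direction and the 2 of highest CPM not called; some genes so chosen are not reported here. Gene order came from the RefSeq table of assembly UCB_Xtro_10.0, which held all 108 symbols. A description of promoter motifs was planned but not made, since no sequence was used here. Alternatives were DESeq2 1.42.0, upper-quartile factors, other filters and thresholds, limma-trend 3.58.1 on log2 TPM, a replicate block, removal of ribosomal RNA gene models, a narrower cadherin rule and each library left out.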

Additional observations from a re-analysis of the deposited data

How the results depend on the processing

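The count of 3 junction genes called higher stayed within 2 to 4 under every alternative, and cldn11, nectin4, cldn1 and nectin1 were called under each of them. The count lower, 5, was 8 with no filter, 2 and 8 at thresholds of 0.01 and 0.1, and 3 to 12 with a library left out. With DESeq2 it was 4: cldn8.3 (adjusted p = 0.0512) and gjb2 (0.187) lost their calls and cldn6.1 gained one (0.0439). Over all genes the counts were 210 higher and 220 lower at 0.01 and 874 higher at 0.1, 862 lower with no filter, 872 lower by limma-trend on log2(TPM + 0.1), and 337 to 1493 lower with a library left out. Partner genes called higher were 1 at the 0.1 threshold and 0 to 2 with a library left out. Partner genes called lower were 2 with upper-quartile factors, no filter, ribosomal RNA gene models left out or the 0.1 threshold, 0 at 0.01, and 0 to 7 with a library left out. The sum of all members was 0.911 times control in TPM and 0.967 times in TMM-scaled CPM, and that of claudins 0.863 and 0.899 times. Overlap of family sums also depended on the unit. In TMM-scaled CPM other tight junction genes had 2845 and 2871 in Foxh1 MO and 2946 and 2936 in control MO. Cadherins had 980 and 973 in Foxh1 MO and 968 and 950 in control MO. Neither family overlapped there, although both did in TPM.

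With the replicate number as a block, 3 junction genes rose and 6 fell (cldn5 was added), and 0 partner genes fell. Deviations of same-numbered libraries correlated at -0.0821, so the numbers are not treated as pairing. Among the other named genes, klf5 (adjusted p = 0.0725) and prkcz (0.0580) lost their calls under the block, and it changed no other call of a named gene. By limma-trend klf5 (0.0542 and 0.0551) and prkcz (0.0925 and 0.111) lost theirs with 1 and with 0.1 added, and by DESeq2 twist1 (0.0986), sox17b.1 (0.0674) and prkcz (0.0846) did.

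Signs turned for genes close to 0. The log2 fold change of ctnna1 was -0.0052 by DESeq2, -0.0034 with upper-quartile factors, -0.011 with a filter of 1 CPM and -0.038 by limma-trend at both pseudocounts; that of gja7 was -0.0051, -0.0069, -0.010, -0.045 and -0.045, and that of ca12 was -0.0075, -0.0068, -0.013, -0.035 and -0.037. By limma-trend with 1 and with 0.1 added, cdh16 had -0.00079 and -0.00047, ctnnd1 -0.0092 and -0.0092, and epcam -0.012 and -0.012. With a library left out the ranges were -0.11 to 0.0903 for afdn, -0.0574 to 0.0661 for ca12, -0.10 to 0.19 for cdh16, -0.0491 to 0.21 for cldn6.2, -0.22 to 0.0658 for cldn7, -0.0848 to 0.0887 for ctnna1, -0.13 to 0.0835 for ctnnal1, -0.0418 to 0.11 for ctnnd1, -0.01 to 0.0690 for epcam, -0.18 to 0.17 for gja7 and -0.0484 to 0.19 for tfap2c. The cause was not tested. Fits on 3 libraries assume that the single one remaining in a group varies like the other group. At this depth 48 junction genes could not be tested. With 2 libraries a group, an exact permutation test of a single value cannot go below 0.333.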

Other observations

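Ratios between related genes within a library do not depend on library scaling. They were computed for 7 pairs chosen after the values were seen, so they are descriptions. The ratio of cldn6.1 to its neighbour cldn6.2 in TPM was 1.11 and 1.10 in the Foxh1 MO libraries, against 1.59 and 1.54 in the control MO libraries. Both genes had split reads, so this ratio is uncertain. The ratio of nectin4 to nectin1 was 6.72 and 6.94 in Foxh1 MO and 0.773 and 0.686 in control MO, so that the more abundant of these nectins differed between the groups. The ratio of cdh1 to cdh3 was 0.0458 and 0.0486 in Foxh1 MO and 0.0577 and 0.0641 in control MO. That of pard6b to pard6g was 0.477 and 0.396 in Foxh1 MO and 0.633 and 0.744 in control MO. In each of these 4 pairs the groups did not overlap, for which the exact two-sided permutation test gives 0.333, the smallest p possible with 2 libraries a group. For jup over dsp the groups overlapped, with 4.21 and 2.93 in Foxh1 MO and 3.92 and 4.94 in control MO.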
